A study of Rattus norvegicus with 2 samples.

Results

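Retinoic acid is a small signal that cells make from vitamin A, and 9 genes of its synthesis and response were followed in the postnatal rat cochlea. They were Aldh1a1, Aldh1a2 and Aldh1a3, which make the acid, Crabp1 and Crabp2, which bind it in the cell, Rarb, a receptor for it, and Cyp26b1, Dhrs3 and Stra6, which act in its breakdown, in the return of retinal to retinol and in retinol uptake. The members were chosen by name for these roles, and each was found once by its symbol among the 32623 genes listed. Cells of the cochlear duct of Sprague-Dawley rats, with no treatment or allele named in the labels, were sequenced as 1 droplet library at postnatal day 1 (P1) and 1 at postnatal day 7 (P7), each from pooled cochleae. With 1 library per age, no test between the ages was possible and no p-value is given. The cells of a library are not replicates, and an animal or preparation effect cannot be told apart from age.

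As background, retinol enters the cell, is oxidised to retinal by reversible dehydrogenases, and is then oxidised to retinoic acid by the enzymes of the ALDH1A family. The acid binds receptors of the RAR and RXR families on DNA, and some of the genes that respond, among them Rarb, Crabp2, Dhrs3 and the Cyp26 genes, act on the signal itself. Cells that make the acid and cells that respond to it are often neighbours, and in the developing inner ear both excess and lack of the acid are known to disturb morphogenesis.

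The values were unique molecular identifiers (UMIs), 1 for each captured transcript, so they were not scaled by gene length. The library held 114285848 UMIs at P1 and 101264868 at P7. After limits on genes, UMIs and mitochondrial share, 12779 cells at P1 and 12581 at P7 were kept, with medians of 6565 and 6878 UMIs. Only 53 barcodes were kept in both libraries. Levels are given as UMIs of a gene per 1000000 UMIs of the same cells (CPM). Ranges in brackets are exact 95% intervals, by Poisson for levels, from both counts for ratios and by Clopper-Pearson for shares of cells, and they cover counting error only.

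Cells were put in classes by their mean score on marker lists, and 13 classes with enough cells at both ages are described. A class name means only that the cells were like that type by these markers. The 5 mesenchymal classes are named after genes of their lists (Scara3, Ccn3, Penk, Gpc3-Dcn and Sfrp4), and the others are fibrocytes, epithelium, tectorial epithelium (cells with genes of the tectorial membrane, which covers the sensory epithelium), glia, neurons, endothelium, mural cells and macrophages. The gate left 31.4% of cells at P1 and 20.7% at P7 without a class. The labels call the cells greater epithelial ridge cells, but the epithelium class, led by Oc90, Smoc2 and Epcam, held 166 cells at P1 and 86 at P7. The tectorial class, led by Tecta, Tectb and Epyc, held 86 and 123 cells, so both together were a small share of the kept cells. The study considers some of its clusters subtypes of greater epithelial ridge cells. Genes it names for them are on the fibrocyte, Gpc3-Dcn, Scara3 and Ccn3 lists used here. It also reports in situ hybridization of Otor, Col6a1, Scara3 and Ccn3 in that region at P1. Mesenchyme is thus a name given here, and not the study's.

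In a joint clustering of both libraries, made with no correction between them, the mesenchymal cells, the fibrocytes and most glia fell apart by age. In this split, effects of library and of age cannot be told apart. Clusters named for the Scara3 list held 11 cells of P1 and 1063 of P7, those for Gpc3-Dcn 1 and 1886, those for Sfrp4 13 and 2240, those for Penk 2840 and 21, and those for Ccn3 2462 and 150. The 4 fibrocyte clusters held 2196 and 28, 986 and 54, 14 and 1028, and 6 and 880 cells of P1 and P7, and the largest glial clusters 30 and 2635 and 1608 and 48. The differences between ages within a gated class of mesenchyme, fibrocytes or glia are therefore mostly between cells that share the listed markers but not a cluster. With the clusters in place of the gate, the class with the highest level was another one for 6 members at P1 (among them Aldh1a1, Aldh1a2, Crabp2 and Rarb) and for 4 at P7 (Cyp26b1, Rarb, Dhrs3 and Stra6).

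Some classes differed between the libraries in other ways that touch the values. The neurons were 453 cells at P1 with a median of 18125 UMIs, and 75 cells at P7 with a median of 6034 UMIs. In the P7 neurons the summed level of the 8 neuronal markers was 1956 CPM and that of the 9 glial markers 8392 CPM, against 7625 and 1386 CPM at P1. The P7 neurons were therefore not a clean neuronal class. The tectorial cells had a median of 4989 UMIs at P1 and 2551 at P7. Their summed level of the 7 tectorial markers was 3686 CPM at P1 and 7932 CPM at P7. That of the 8 fibrocyte markers was 7975 and 11263 CPM, and that of the 7 Gpc3-Dcn markers 3447 and 3052 CPM. The tectorial class was therefore also mixed, and the part of this in its values was not tested. Doublets were called for 6.17% of the Scara3 class at P1 and 10.1% at P7.

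Over all kept cells, Aldh1a2 was the most abundant Aldh1a gene at both ages, and the members moved in different directions from P1 to P7. Aldh1a1 and Crabp2 were higher at P7, Aldh1a2, Aldh1a3, Crabp1 and Stra6 were lower, and Rarb, Dhrs3 and Cyp26b1 stood within 0.2 log2 units of no difference. Of the 9 members, 0 were at least 2-fold higher and 1, Aldh1a3, was at least 2-fold lower. Among the 11780 genes with at least 200 UMIs in one library, 10.4% were at least 2-fold higher at P7 and 10.0% at least 2-fold lower, so the members were not more often past this fold than other genes. The median of these genes stood at a log2 ratio of 0.09, and it was 0.11 over the 10591 genes with at least 200 UMIs in both libraries. The ratios of Rarb and Dhrs3 were close to that shift. In sums over all cells, fewer cells of a type and less RNA per cell cannot be told apart.

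**Figure D1:**
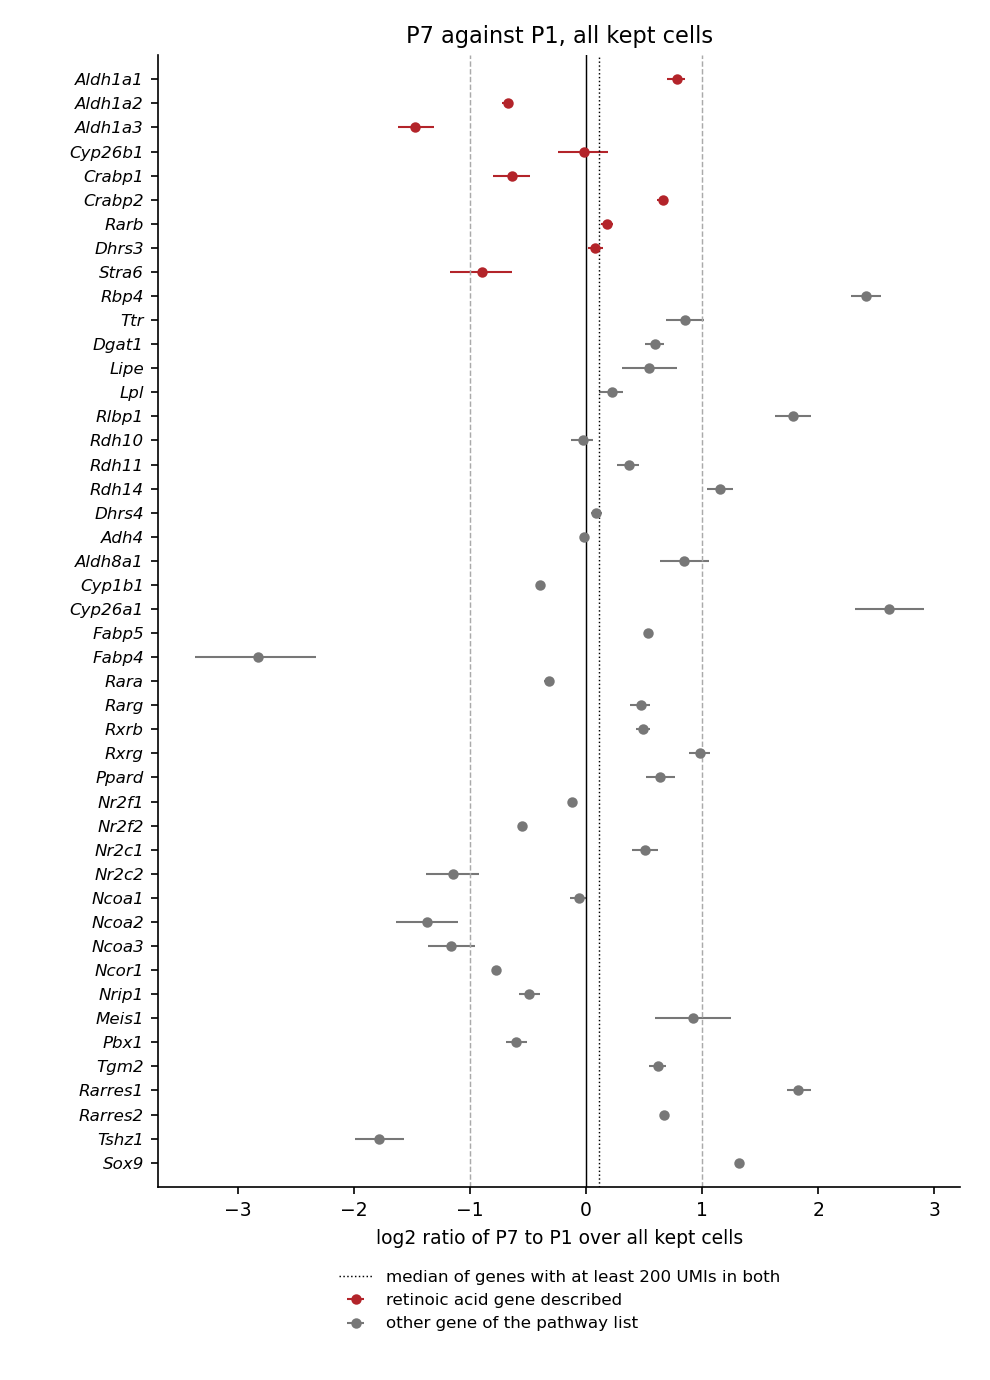
Log2 ratio of P7 to P1 over all kept cells for the 9 members and for pathway genes with at least 200 UMIs, with exact 95% intervals of counting error; the dashed lines mark 2-fold and the dotted line the median of all genes. Aldh1a3 at −1.47 is the member past 2-fold, and Aldh1a1 at 0.78 and Crabp2 at 0.66 are the highest members.

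The synthesis genes lay in different classes. Aldh1a2 (ENSRNOG00000055049) is the enzyme known as the main maker of retinoic acid in the embryo. In the Scara3 class its level was 541 CPM at P1 and 721 CPM at P7. In the Ccn3 class it was 293 CPM at P1 and 191 CPM at P7. The other 11 classes had at most 25 CPM at either age, so among the classes Aldh1a2 was mainly found in this mesenchymal pair at both ages. Cells without a class had 67.9 CPM at P1 and 25.4 CPM at P7, and held 17.4% and 7.81% of the gene's UMIs.

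The share of the gene's UMIs that came from the Scara3 class was 40.8% at P1 and 76.1% at P7, and that of the Ccn3 class was 38.0% and 10.2%. Within the Scara3 class the log2 ratio of the ages, P7 over P1, was 0.41 (0.36 to 0.47), and within the Ccn3 class it was −0.61 (−0.74 to −0.49). Over all cells the level was 109 CPM at P1 and 68.5 CPM at P7, a log2 ratio of −0.67 (−0.72 to −0.63). With both classes left out it was at 29.8 CPM at P1 and 10.5 CPM at P7, a log2 ratio of −1.5. The overall difference thus had the direction of the Ccn3 class and of the cells outside the pair, and not of the class with the highest level. The Ccn3 class numbered 1627 cells (12.7%) at P1 and 437 cells (3.47%) at P7, and the Scara3 class 956 cells (7.48%) and 772 cells (6.14%).

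With each cell thinned to 2000 UMIs, Aldh1a2 was found in 55.5% (52.2 to 58.7) of Scara3 cells at P1 and 59.9% (56.3 to 63.5) at P7. It was found in 32.5% (30.2 to 34.9) and 20.5% (16.7 to 24.7) of Ccn3 cells. In macrophages, taken as cells that should lack it, it was found in 3.07% (1.00 to 7.01) and 4.71% (2.05 to 9.06), and this was read as background. Both mesenchymal classes lay far above that background. Without thinning the shares were 80.2% and 83.8% in Scara3 cells, 57.9% and 38.4% in Ccn3 cells, and 4.73% and 6.99% in macrophages. Scara3 is named by the study beside Aldh1a2, from these libraries, and the other markers of the list come from the study's genes for the same cells. The height of Aldh1a2 in that class is therefore not independent of the list.

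**Figure D2:**
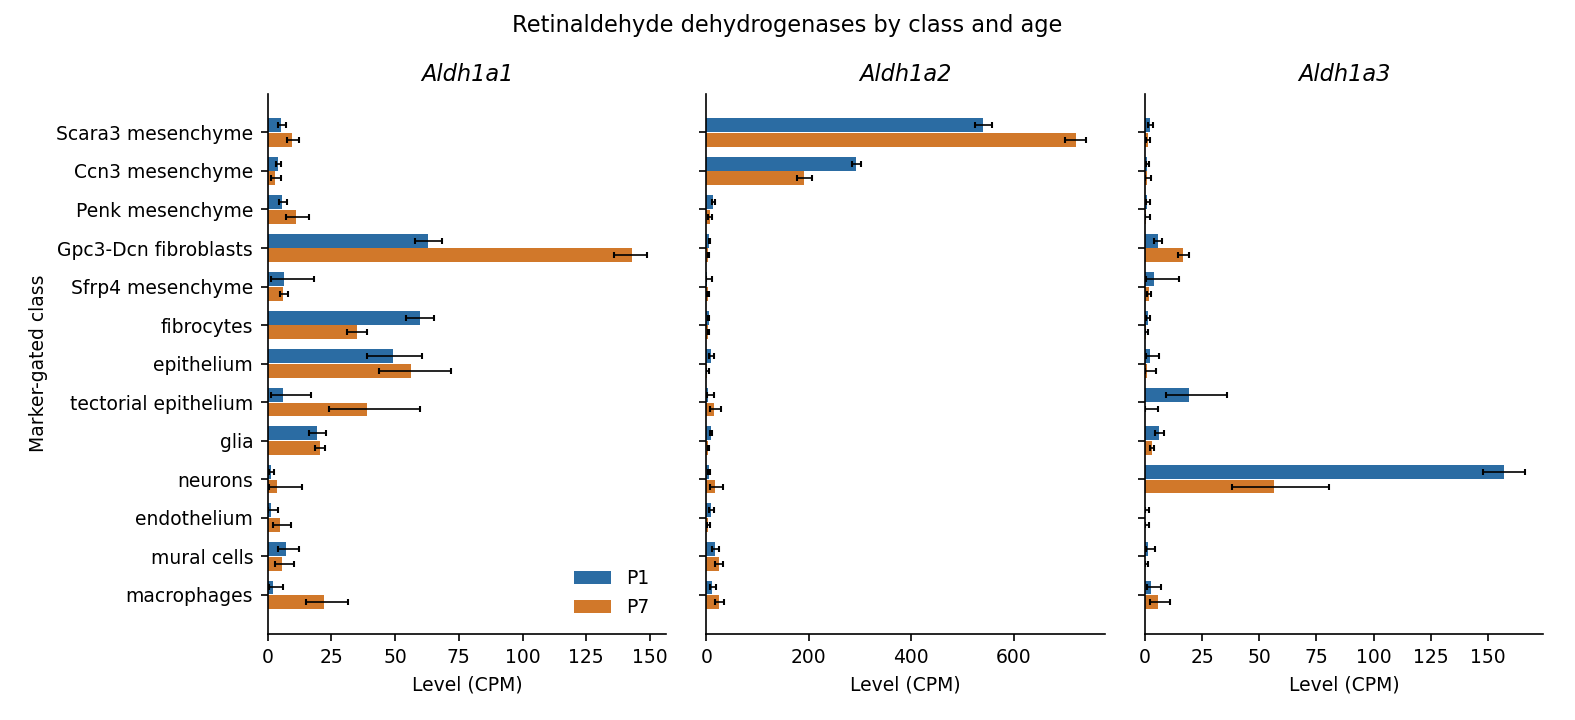
Level in CPM of Aldh1a1, Aldh1a2 and Aldh1a3 in the 13 classes at P1 and P7, as bars from 0 with exact Poisson intervals. Aldh1a2 stands in the Scara3 and Ccn3 classes, Aldh1a1 in Gpc3-Dcn fibroblasts, fibrocytes and epithelium, and Aldh1a3 in neurons.

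Aldh1a1 (ENSRNOG00000017619), a related enzyme also known from adult tissues, had its highest level in Gpc3-Dcn fibroblasts. There it was 62.9 CPM (57.6 to 68.5) at P1 and 143 CPM (136 to 149) at P7. Fibrocytes followed at P1 with 59.6 CPM (54.3 to 65.3), so the leading pair of classes overlapped, and epithelium had 49.0 CPM (39.1 to 60.7). At P7 the next class, epithelium, had 56.3 CPM (43.5 to 71.8) and fibrocytes had 35.0 CPM (31.2 to 39.0). The fibroblasts thus stood apart from the other classes at P7 but not at P1.

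Between the ages the log2 ratio of Aldh1a1 was 1.18 (1.04 to 1.33) in Gpc3-Dcn fibroblasts and −0.77 (−0.98 to −0.56) in fibrocytes. In thinned cells it was found in 7.80% of the fibroblasts at P1 and 20.1% at P7, and in 9.02% and 5.07% of fibrocytes. Macrophages gave 0 of 163 cells at P1 (an upper limit of 2.24%) and 2.94% at P7. The fibroblasts and fibrocytes thus went in opposite directions by level and by detection. Over all cells Aldh1a1 was at 23.9 CPM at P1 and 40.9 CPM at P7, a log2 ratio of 0.78 (0.70 to 0.85). The fibroblast class was 8.79% of cells at P1 and 14.8% at P7, and it gave 22.3% and 50.6% of the gene's UMIs.

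In the tectorial class Aldh1a1 was at 5.86 CPM at P1 and 39.1 CPM at P7, a log2 ratio of 2.74 (0.99 to 5.13). This rested on 3 UMIs at P1 and 21 at P7, all 21 of them in 9 cells. In glia it was 19.2 and 20.4 CPM, levels whose intervals overlap.

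Aldh1a3 (ENSRNOG00000052070), the third enzyme, was concentrated in the neurons at P1. It was at 157 CPM (148 to 166) in neurons at P1 and 56.4 CPM (38.1 to 80.6) at P7. At P1 the neurons held 1118 UMIs, 81.6% of the gene's total, spread over 287 of 453 cells, with 9.03% of them in the top 10 cells. At P7 they held 30 UMIs, 6.37% of the total. The neuronal level at P1 was thus carried by many cells. With a larger margin in the gate, or under 10% of mitochondrial UMIs, the highest class at P7 was the Gpc3-Dcn fibroblasts.

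In thinned cells Aldh1a3 was found in 18.9% (15.3 to 22.9) of neurons at P1 and 7.94% (2.63 to 17.6) at P7, against 0.613% and 1.18% of macrophages. Within the neurons the log2 ratio was −1.48 (−2.05 to −0.95), in a class that held more glial than neuronal marker UMIs at P7. The part of that mixture in the ratio was not tested. In Gpc3-Dcn fibroblasts Aldh1a3 went the other way, from 5.66 CPM (4.16 to 7.53) at P1 to 16.8 CPM (14.7 to 19.2) at P7, a log2 ratio of 1.57 (1.11 to 2.06). These cells held 3.43% of the gene's UMIs at P1 and 48.2% at P7.

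Over all cells Aldh1a3 was at 14.0 CPM at P1 and 5.06 CPM at P7, a log2 ratio of −1.47 (−1.62 to −1.31). With the cells gated as neurons left out, it was at 2.77 CPM at P1 and 4.77 CPM at P7, a log2 ratio of 0.78 (0.55 to 1.01). The direction of the overall difference therefore rested on the neurons. With cells kept only under 10% of mitochondrial UMIs, which left 164 neurons at P1 and 47 at P7, it was 0.14.

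Across the 3 enzymes, few cells held more than 1 of them. In thinned cells 1950 at P1 and 1467 at P7 had a UMI of some Aldh1a gene, and 16 (0.821%) and 28 (1.91%) had UMIs of at least 2 of them. Aldh1a1 was found in 0.880% (0.456 to 1.53) of the Aldh1a2 cells at P1 and in 3.92% of the cells without Aldh1a2, and at P7 in 1.60% (0.803 to 2.85) and 6.17%. Both intervals lay below the share in the other cells. All classes were pooled for these shares, and Aldh1a1 and Aldh1a2 were not compared within a class. At P7 Aldh1a1 was found in 17 of 108 Aldh1a3 cells, 15.7% (9.45 to 24.0), against 5.82% of the others. Inside the Gpc3-Dcn fibroblasts it was found in 12 of 50 Aldh1a3 cells, 24% (13.1 to 38.2), against 20% of the others, a difference within the interval.

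Summed over the 3 enzymes, the Scara3 class had 548 CPM at P1 and 732 CPM at P7, of which Aldh1a2 gave 98.6% and 98.5%. The Ccn3 class had 298 and 195 CPM. Neurons had 164 and 77.1 CPM, Gpc3-Dcn fibroblasts 74.4 and 163 CPM, fibrocytes 65.4 and 39.2 CPM, and epithelium 60.1 and 58.1 CPM. Scara3 cells thus held the highest summed level of the synthesis genes at both ages, and the Gpc3-Dcn fibroblasts rose in rank by P7. The Penk class, at 20.4 and 17.8 CPM, had little of the enzymes.

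At P7 the Penk class was the highest class for Rarb and for Dhrs3. Rarb (ENSRNOG00000024061) encodes retinoic acid receptor beta, which is itself a direct target of the acid in many cells. A direct repeat of a motif known to bind these receptors lay just after its start, and the stretch is shown because of all 9 members only Rarb had one. It lies in RefSeq build GRCr8, which is not the build of the counts, at chr15:11336410-11336438 on the plus strand, the strand of the gene. The capitals mark both copies of the motif, GGTTCA followed by AGTTCA, which are 5 bases apart, and the first base of the repeat is base 25 after the start.
Rarb: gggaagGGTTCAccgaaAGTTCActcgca

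Windows of 250 bases before to 50 bases after the start of each gene were searched on both strands, and all 9 members had one. The forms of the motif searched were AGGTCA, then AGTTCA, then GGGTCA and then GGTTCA, any form followed by any form in the same direction, 5 or 2 bases apart. Of 33469 windows, 128 (0.382%) held a repeat 5 apart and 57 (0.17%) one 2 apart. A match is a description of letters and not a site or a cause, and a window without one says only that these letters are not there.

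In the Penk class Rarb was at 139 CPM (132 to 147) at P1 and 204 CPM (186 to 223) at P7, and in Gpc3-Dcn fibroblasts at 145 CPM (136 to 153) and 157 CPM (150 to 164). The leading pair of classes overlapped at P1, and the Penk class stood above the fibroblasts at P7. The Scara3 class followed with 90.0 and 115 CPM, the Ccn3 class with 82.2 and 94.9 CPM, and the Sfrp4 class with 66.5 and 113 CPM. Mural cells had 47.6 and 68.0 CPM and tectorial cells 25.4 and 74.5 CPM, the latter with an interval overlapping that of the Ccn3 class at P7. In epithelium it was 11.1 and 9.53 CPM. The 5 mesenchymal classes thus had the highest levels at both ages, with tectorial and mural cells next at P7. The tectorial class also held fibrocyte and Gpc3-Dcn markers, as given above, and their part in its Rarb level was not tested.

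In thinned cells Rarb was found in 24.4% (21.9 to 27.0) of Penk cells at P1 and 35.5% (30.1 to 41.2) at P7, against 0.613% and 3.53% of macrophages. Within the Penk class the log2 ratio was 0.55 (0.39 to 0.70). Over all cells the level was 69.9 CPM at P1 and 79.2 CPM at P7, a log2 ratio of 0.18 (0.13 to 0.23). Rarb was higher at P7 in 12 of the 13 classes, and so was Crabp2. Of 5298 genes measured in every class, 31.9% were higher at P7 in at least 12, so this is a common pattern in these libraries. The 12 classes include macrophages, read as background, with Rarb at 4.23 and 22.9 CPM and Crabp2 at 12.0 and 34.7 CPM. With clusters in place of the gate Rarb was lower at P7 in the Ccn3 class (log2 ratio −0.65) and in fibrocytes (−0.20). In both, most cells of P1 and of P7 came from different clusters.

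**Figure D3:**
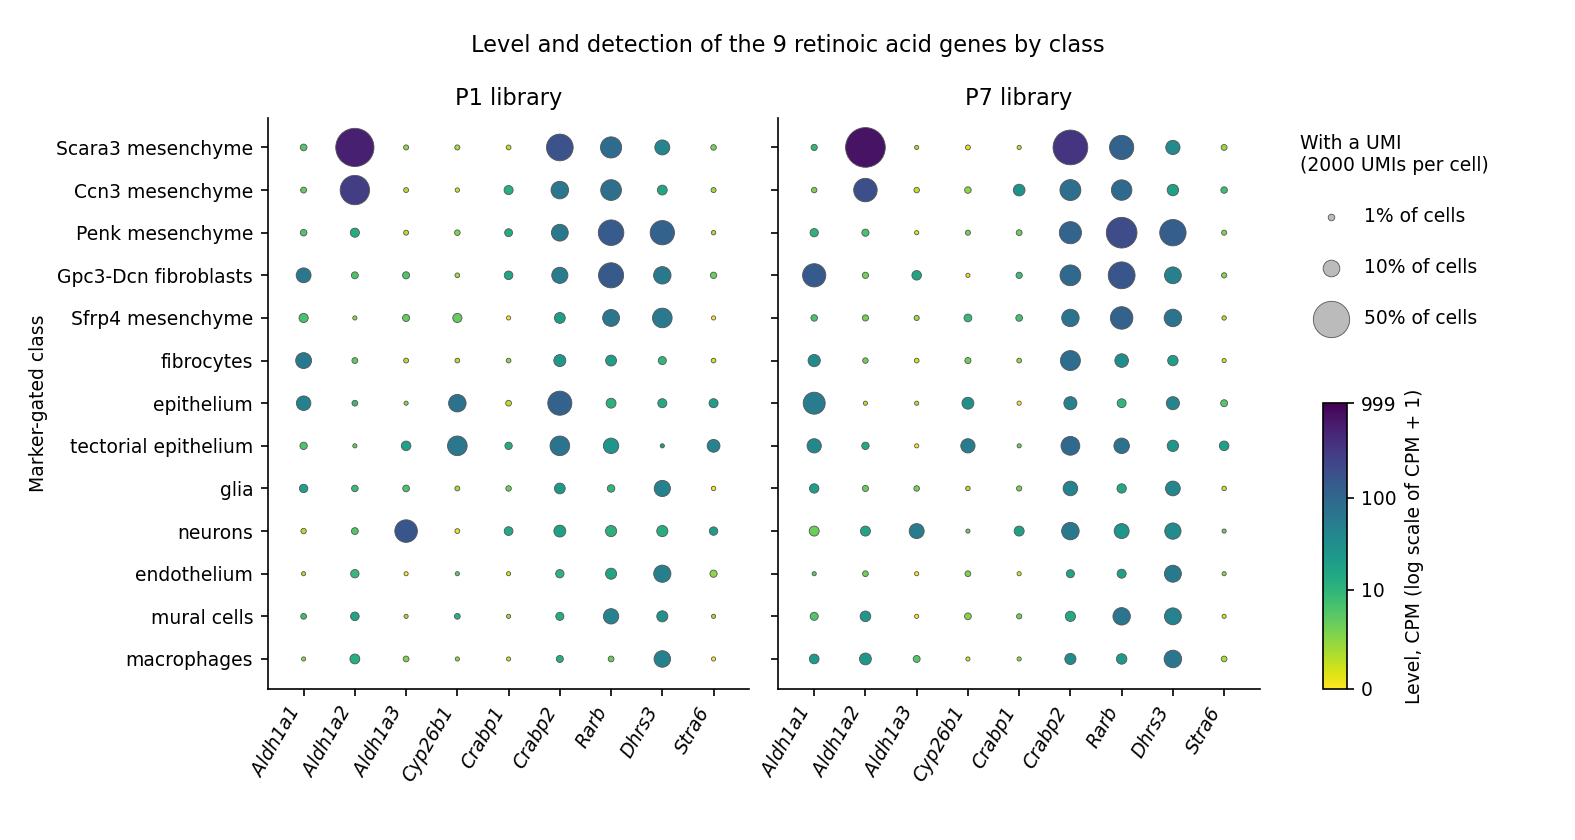
Dot plot of the 9 members in the 13 classes at P1 and P7; dot area is the percent of cells with a UMI after thinning to 2000 UMIs and colour is the level on a log scale. The enzymes occupy different rows, while Rarb and Crabp2 are spread over the mesenchymal classes and Dhrs3 is found in mesenchymal and other classes.

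Crabp2 (ENSRNOG00000022101), a protein known to carry retinoic acid to its receptors, was highest where Aldh1a2 was highest. In the Scara3 class it was at 176 CPM (167 to 185) at P1 and 343 CPM (330 to 358) at P7. It was at 117 CPM (102 to 135) and 50.3 CPM (38.2 to 65.0) in epithelium, the next class at P1. In the Penk class, the next at P7, it was at 61.2 and 109 CPM. In thinned Scara3 cells it was found in 26.7% (23.9 to 29.7) at P1 and 45.7% (42.1 to 49.4) at P7, against 1.23% and 4.12% of macrophages.

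The log2 ratio of Crabp2 was 0.97 (0.87 to 1.06) in the Scara3 class and 1.82 (1.59 to 2.06) in fibrocytes, where it was at 24.1 CPM at P1 and 85.1 CPM at P7. In fibrocytes the summed level of the 5 Scara3 markers was 95.7 CPM at P1 and 739 CPM at P7, of which Clu gave 54.0 and 696 CPM, while Scara3 was at 22.5 and 29.3 CPM and the other 3 markers were each lower at P7. The summed level of the 4 cartilage markers in fibrocytes was 390 CPM at P1 and 1448 CPM at P7. The part of these markers in the ratio was not tested. Epithelium was the 1 class of 13 where Crabp2 was lower, by a log2 ratio of −1.22 (−1.67 to −0.79). Over all cells it was at 59.8 CPM at P1 and 94.2 CPM at P7, a log2 ratio of 0.66 (0.61 to 0.70). Crabp2 was thus higher at P7 in all 5 gated mesenchymal classes and lower in epithelium, but with clusters in place of the gate its log2 ratio in the Ccn3 class was −2.14. Most P1 cells named for Ccn3 there were in a cluster with mean scores of 1.28 for Ccn3 and 1.05 for Scara3. Most P7 cells were in another cluster, which held 84 cells of P1 and 124 of P7. The ratio by clusters therefore does not compare like cells.

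Crabp1 (ENSRNOG00000023633), the other binding protein, was low and had no class clearly above the rest. Its highest level at P1 was 16.3 CPM (13.6 to 19.2) in Gpc3-Dcn fibroblasts, where it was 7.71 CPM (6.30 to 9.35) at P7. At P7 its highest level was 29.6 CPM (24.1 to 36.0) in the Ccn3 class, where it was 11.5 CPM (9.81 to 13.5) at P1. The log2 ratio was 1.36 (0.99 to 1.73) in the Ccn3 class and −1.80 (−2.96 to −0.82) in the Penk class. Of the P7 UMIs in the Ccn3 class, 63.4% lay in 10 of its 437 cells. The leading class overlapped neurons at both ages (14.3 CPM, 11.7 to 17.4, at P1 and 18.8 CPM, 9.02 to 34.6, at P7), so no class can be placed first. Over all cells the level was 8.51 CPM at P1 and 5.46 CPM at P7, a log2 ratio of −0.64 (−0.80 to −0.48).

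Dhrs3 (ENSRNOG00000015736) encodes a reductase that returns retinal to retinol and is known to be induced by the acid. It was highest in the Penk class at both ages, at 112 CPM (105 to 119) at P1 and 131 CPM (117 to 147) at P7. At P1 Gpc3-Dcn fibroblasts followed with 61.2 CPM (56.0 to 66.8), and at P7 the Sfrp4 class followed with 71.7 CPM (66.3 to 77.5). Macrophages had 47.9 and 65.2 CPM and endothelium 51.1 and 59.5 CPM, so Dhrs3 was not a gene of mesenchyme alone.

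Both classes with high Aldh1a2 were lower for Dhrs3 than the Penk class, and the Ccn3 class had 15.7 CPM at P1 and 19.3 CPM at P7. In thinned cells Dhrs3 was found in 22.0% of Penk cells at P1 and 26% at P7, and no class was taken as lacking it. The log2 ratio was 1.09 (0.70 to 1.5) in fibrocytes and 1.51 (0.79 to 2.27) in epithelium. Over all cells the level was 41.8 CPM at P1 and 44.4 CPM at P7, a log2 ratio of 0.08 (0.02 to 0.15), and its sign changed with the scaling of the libraries.

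Cyp26b1 (ENSRNOG00000015076), an enzyme that breaks down the acid, had its highest levels in the epithelial classes. In epithelium it was at 74.7 CPM (62.3 to 88.8) at P1 and 31.2 CPM (21.8 to 43.2) at P7. In tectorial cells it was at 64.5 CPM (44.4 to 90.6) at P1 and 55.9 CPM (37.7 to 79.7) at P7. Both classes overlapped at P1, and the next classes were mural cells with 11.4 CPM at P1 and the Sfrp4 class with 8.50 CPM at P7.

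Epithelium and tectorial cells held 35.4% and 9.12% of the gene's UMIs at P1 but 10.7% and 8.88% at P7, when the Sfrp4 class held 22.8%, fibrocytes 10.1% and cells without a class 27.8%. The P1 level in epithelium came from 128 UMIs in 42 cells, with 61.7% of them in 10 cells. In thinned cells it was found in 11.1% (6.72 to 17.0) of epithelium and 14.1% (6.97 to 24.4) of tectorial cells at P1, against 0 of 163 macrophages. At P7 it was found in 4.76% and 7.14% of these classes and in 0 of 170 macrophages, which allows up to 2.15%. The log2 ratio was −1.26 (−1.84 to −0.72) in epithelium and −0.21 (−0.97 to 0.55) in tectorial cells. Over all cells the level was 3.69 CPM at P1 and 3.63 CPM at P7, a log2 ratio of −0.02 (−0.24 to 0.19), a difference not detectable at this depth.

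Stra6 (ENSRNOG00000008312), a membrane receptor through which cells take up retinol, was the least abundant member at P7. It was highest in tectorial cells, at 46.9 CPM (30.1 to 69.8) at P1 and 18.6 CPM (8.93 to 34.2) at P7, from 24 and 10 UMIs. At P7 that interval overlapped the Ccn3 class, the next class, at 7.32 CPM (4.74 to 10.8), so no class can be placed first there. In neurons Stra6 was at 21.5 CPM (18.2 to 25.2) at P1, from 153 UMIs, and 3.76 CPM (0.456 to 13.6) at P7, from 2 UMIs. These values at P7 rest on few UMIs.

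Over all cells Stra6 was at 3.67 CPM at P1 and 1.97 CPM at P7, a log2 ratio of −0.90 (−1.17 to −0.64). With neurons left out it was at 2.28 and 1.96 CPM, a log2 ratio of −0.22 (−0.52 to 0.07), so the lower level at P7 also rested on them.

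**Figure D4:**
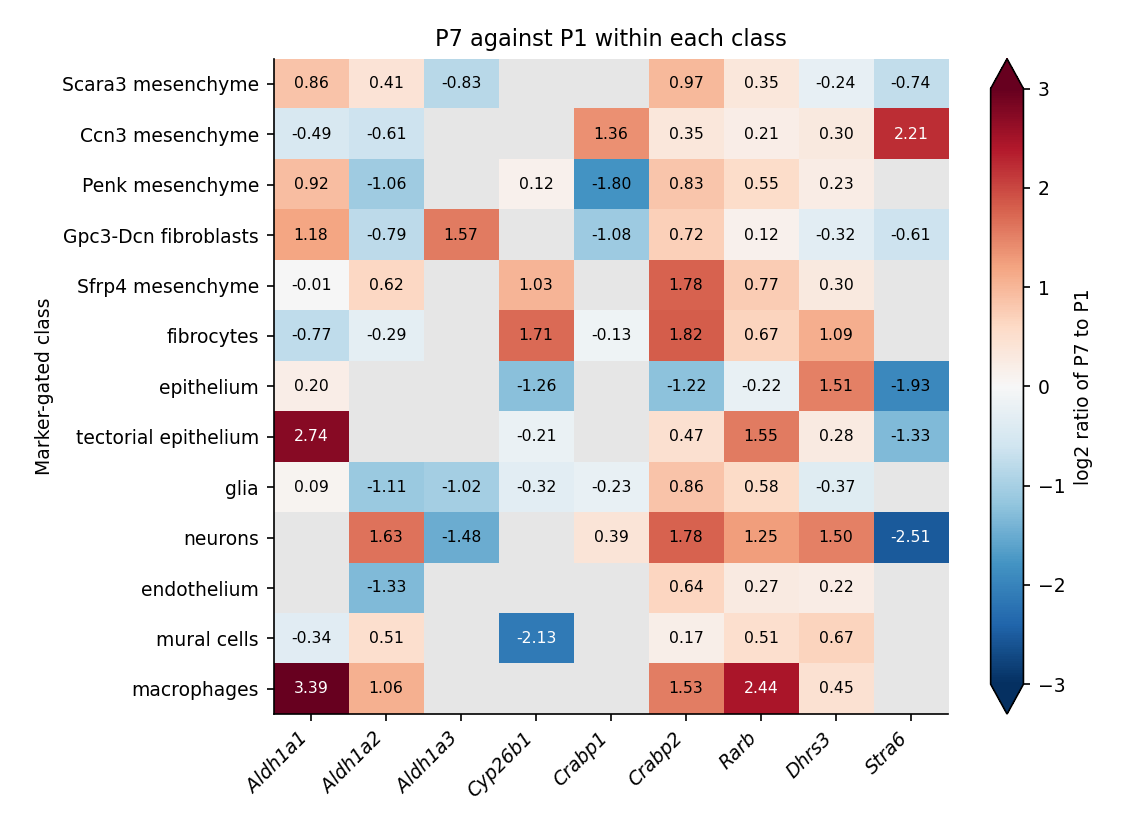
Heat map of each member's log2 ratio of P7 to P1 within each class, where both ages together held at least 20 UMIs (grey marks fewer). Crabp2 and Rarb are positive in 12 of 13 classes, while Aldh1a2, Aldh1a3, Cyp26b1 and Crabp1 hold both signs.

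Within classes, members that reached 50 UMIs at one of the ages were counted past 2-fold and set beside all genes that did. In the Scara3 class 0 of 5 members were at least 2-fold higher and 0 were at least 2-fold lower, where 11.0% and 5.97% of all genes were. In the Gpc3-Dcn fibroblasts 2 of 6, Aldh1a1 and Aldh1a3, were higher and 1, Crabp1, was lower, against 11.4% and 7.46%. In the Penk class 0 of 6 were higher and 2, Aldh1a2 and Crabp1, were lower, against 8.09% and 8.58%. In the Ccn3 class 1 of 6, Crabp1, was higher and 0 were lower, against 9.88% and 7.64%.

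In fibrocytes 2 of 4, Crabp2 and Dhrs3, were at least 2-fold higher, against 14.9% of all genes, and 0 were lower, against 5.98%. In epithelium 0 of 3 were higher, against 9.63%, and 2, Cyp26b1 and Crabp2, were lower, against 6.02%. In neurons 3 of 6, Crabp2, Rarb and Dhrs3, were higher and 2, Aldh1a3 and Stra6, were lower, where 14.7% and 21.5% of all genes were. In glia 0 of 7 were higher and 2, Aldh1a2 and Aldh1a3, were lower, against 12.7% and 8.75%.

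In the Sfrp4 class 2 of 6, Crabp2 and Cyp26b1, were at least 2-fold higher and 0 were lower, against 17.5% and 5.47%. The call for Cyp26b1 rested on 2 UMIs at P1, with an interval of the log2 ratio from −0.87 to 4.10, and Crabp1, at 0 UMIs at P1 and 61 at P7, was not past 2-fold with 0 set to 3 counts. In macrophages 1 of 2, Crabp2, was higher and 0 were lower, against 10.2% and 5.12%. These cells were also read as background for its detection, and there Crabp2 was at 12.0 CPM at P1 and 34.7 CPM at P7. In tectorial cells (1 member with enough UMIs, background 9.24% and 6.9%), endothelium (1 member, 7.88% and 4.93%) and mural cells (2 members, 6.14% and 4.71%), 0 members were past 2-fold. These counts are of few genes and are given as a description.

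For some members 1 class stood well above the next. At P1 the highest class stood at least 2-fold above the next for 2 of 9 members, Aldh1a3 and Stra6, and for 15.2% of 11247 genes. The call for Stra6 rested on 24 UMIs in tectorial cells, 6.67% of its total against 42.5% in neurons, and its highest class was epithelium under 10% of mitochondrial UMIs. At P7 it did so for 4 of the 8 members with at least 200 UMIs, Aldh1a1, Aldh1a2, Aldh1a3 and Crabp2, and for 9.55% of 10908 genes. The call for Aldh1a2 is not independent of the Scara3 list, as said above, so it is not support beside that share. For Aldh1a3 at P7 this rested on 30 UMIs in the mixed neuronal class, and its highest class was another one under 2 of the other settings.

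Cells with at least 1 UMI of an Aldh1a gene were then taken as source cells and set against the other cells, to compare genes that the choice did not use. There were 3865 source cells of 12779 at P1 and 3126 of 12581 at P7. Their median depth was 7980 UMIs at P1 against 6019.5 in the other cells, and 8038.5 against 6438 at P7. Deeper cells were thus more often called as source cells, and a cell without such a UMI is not shown to lack the transcript.

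Dhrs3 was lower in source cells. Over all cells it was at 24.2 CPM in source cells and 53.1 CPM in the others at P1, a log2 ratio of −1.13 (−1.24 to −1.03), and at 31.8 and 49.8 CPM at P7, a log2 ratio of −0.65 (−0.75 to −0.54). Lower by at least 2-fold in source cells were 5.6% of all genes at P1 and 4.17% at P7. Inside the Scara3 class Dhrs3 was at 36.3 against 80.5 CPM at P1 (log2 ratio −1.15, −1.49 to −0.80) and 33.8 against 56.9 CPM at P7 (−0.75, −1.24 to −0.23). The difference was therefore also found within the class that held most Aldh1a2.

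In Gpc3-Dcn fibroblasts, where the source cells were mainly Aldh1a1 cells, Dhrs3 was at 32.3 against 73.5 CPM at P1 (log2 ratio −1.19, −1.55 to −0.84) and at 37.2 against 63.0 CPM at P7 (−0.76, −0.99 to −0.53). At P1 1.64% of all genes were at least 2-fold lower in source cells of the Scara3 class and 1.24% in those of the fibroblasts. At P7 these shares were 2.42% and 0.721%. Dhrs3 passed 2-fold in both classes at P1 and in neither at P7.

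Dhrs3 was lower in source cells in 8 of 9 classes at P1, with 5 intervals below 0, and in 9 of 10 classes at P7, with 4 below 0. Of the genes measured in the same classes, 4.77% of 5808 were lower in all or all but 1 of them at P1 and 1.17% of 4937 at P7. The exceptions were the Ccn3 class at P1, with a log2 ratio of 0.15, and epithelium at P7, with 0.82. In P1 neurons, where source cells had a median of 20357 UMIs and the others 4964.5, the ratio was −1.46, and −0.46 after thinning. In the Scara3 class thinning gave −0.76 at P1 and −0.90 at P7, and in the fibroblasts −1.64 and −0.60, values for which no interval was computed.

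**Figure D5:**
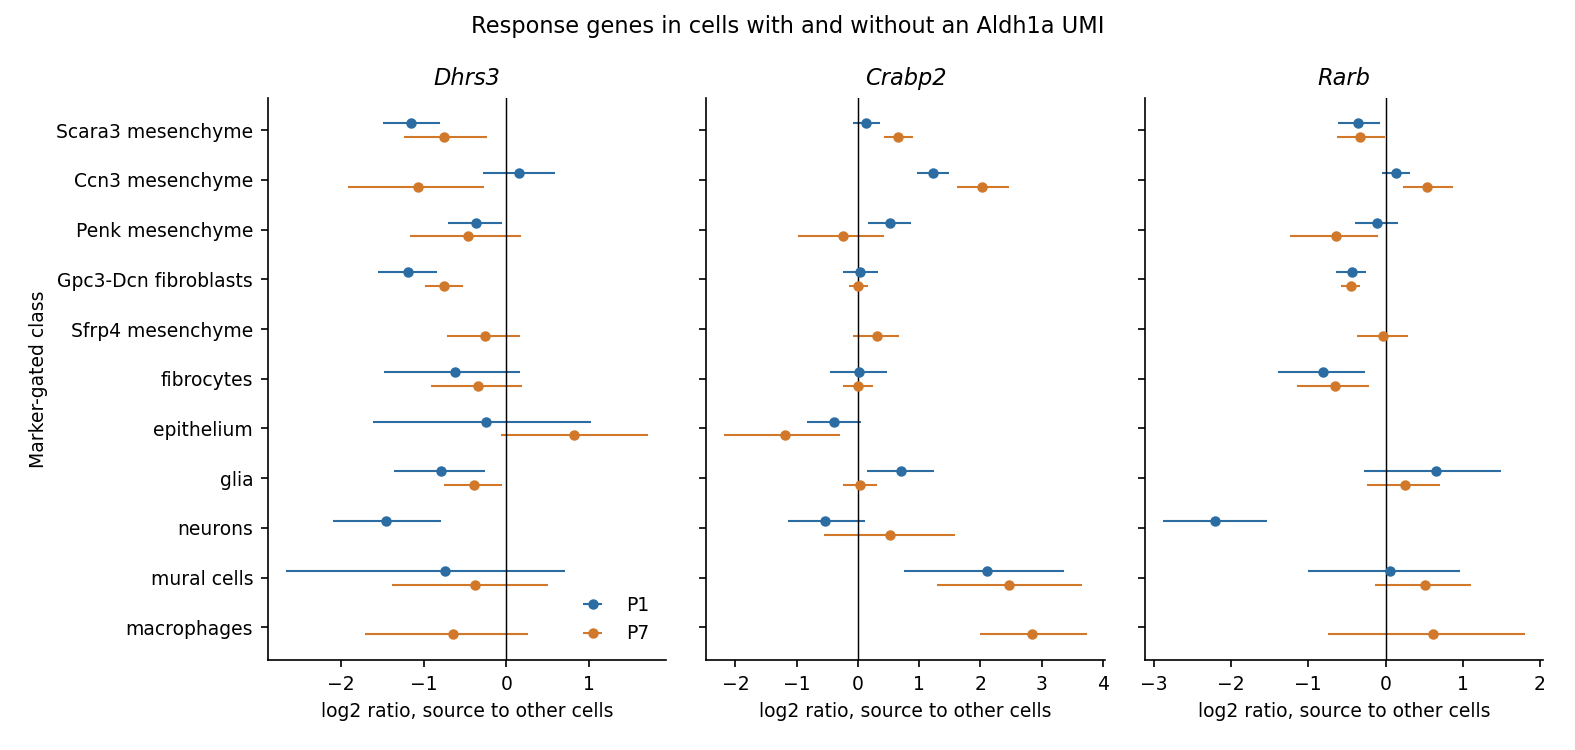
Log2 ratio of source cells (at least 1 UMI of an Aldh1a gene) to the other cells of the same class for Dhrs3, Crabp2 and Rarb at P1 and P7, with exact 95% intervals of counting error. Dhrs3 lies below 0 in 8 of 9 classes at P1 and 9 of 10 at P7, and Crabp2 lies above 0 in 7 of 9 and 9 of 11. For Crabp2, 4 intervals lie above 0 at each age, and 1 lies below 0 at P7.

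Crabp2 had a ratio above 0 in most classes, but fewer of the intervals lay above 0. It was higher in source cells in 7 of 9 classes at P1, with 4 intervals above 0 and 0 below. At P7 it was higher in 9 of 11, with 4 intervals above 0 and 1 below. Of genes measured in the same classes, 13.9% of 5808 at P1 and 3.24% of 3329 at P7 were higher in at least as many. Over all cells Crabp2 was at 82.4 CPM in source cells and 45.3 CPM in the others at P1 (log2 ratio 0.86, 0.79 to 0.94), and at 154 and 68.5 CPM at P7 (1.16, 1.10 to 1.23). Higher by at least 2-fold in source cells were 5.5% of all genes at P1 and 2.21% at P7. In the Ccn3 class it was at 77.9 CPM in source cells and 33.3 CPM in the others at P1, a log2 ratio of 1.23 (0.97 to 1.49). At P7 it was at 137 and 33.5 CPM, a log2 ratio of 2.03 (1.62 to 2.47). Of all genes, 0.799% at P1 and 1.64% at P7 were at least 2-fold higher in source cells of this class.

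In the Scara3 class Crabp2 was at 178 against 162 CPM at P1, a log2 ratio of 0.14 (−0.08 to 0.36), and at 357 against 226 CPM at P7, a log2 ratio of 0.66 (0.43 to 0.90). In Gpc3-Dcn fibroblasts the log2 ratio was 0.04 at P1 and 0.01 at P7. Crabp2 was thus higher in source cells of the Ccn3 class at both ages and of the Scara3 class at P7, whereas in the Scara3 class at P1 the interval held 0. It was also higher in source cells of mural cells, at 40.3 against 9.36 CPM at P1 (2.11, 0.75 to 3.37) and 45.2 against 8.15 CPM at P7 (2.47, 1.30 to 3.66), and of macrophages at P7, at 121 against 16.8 CPM (2.85, 1.99 to 3.74). At 2000 UMIs Aldh1a2 was found in 2.17% (0.878 to 4.43) of mural cells at P1 and 3.68% (1.78 to 6.66) at P7. These intervals overlap those of macrophages, the cells taken as background. Without thinning it was found in 4.86% and 10.7% of mural cells, against 4.73% and 6.99% of macrophages. Doublets were called for 13.4% of macrophages at P7, and for 11.9% of mural cells at P1 and 12.8% at P7. The part of doublets and free RNA in these ratios of mural cells and macrophages was not tested. In epithelium at P7 Crabp2 was lower in source cells, at 28.8 against 65.9 CPM (log2 ratio −1.19, −2.18 to −0.30). The Scara3 and Ccn3 scores of cells within the Ccn3 class were not held fixed here, and their part in the result was not tested.

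Crabp1 was lower in source cells of the Ccn3 class, at 3.92 against 27.7 CPM at P1 (log2 ratio −2.82, −3.39 to −2.28) and 14.1 against 42.7 CPM at P7 (log2 ratio −1.60). There 1.51% of all genes at P1 and 3.37% at P7 were at least 2-fold lower. In sums over cells of that class, Crabp2 was thus higher in source cells and Crabp1 in the others. Whether the same cells held both was not tested.

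Cyp26b1 in epithelium was found mainly in cells without an Aldh1a UMI. It was at 17.5 CPM in 54 source cells and 113 CPM in 112 other cells at P1, a log2 ratio of −2.69 (−3.68 to −1.83). At P7 it was at 4.11 CPM in 37 source cells and 50.9 CPM in 49 others, a log2 ratio of −3.63 (−6.73 to −1.67). The 36 UMIs of the epithelium at P7 lay in 9 cells, with up to 13 in 1 cell, and the 30 UMIs of the tectorial class in 9 cells. Lower by at least 2-fold in source cells of epithelium were 3.59% of all genes at P1 and 5.07% at P7. Most Cyp26b1 UMIs of the epithelium thus came from cells in which no synthesis gene was found, but at P7 these were very few cells.

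Rarb was lower in source cells in 5 of 8 classes at P1, with 4 intervals below 0 and 0 above, and in 5 of 9 at P7, with 4 below and 1 above. The 1 above was the Ccn3 class, at 114 against 78.4 CPM (log2 ratio 0.54, 0.22 to 0.87). In Gpc3-Dcn fibroblasts it was at 115 against 157 CPM at P1 (log2 ratio −0.44) and 134 against 183 CPM at P7 (−0.45). In P1 neurons it was at 6.91 against 31.9 CPM (log2 ratio −2.20, −2.88 to −1.53), with the difference in depth given above. Over all cells its log2 ratio was −0.19 at P1 and 0.30 at P7, and the P1 value turned to 0.19 with cells thinned to 2000 UMIs. The sign also turned with this thinning in the Scara3 class at P1 (−0.35, −0.62 to −0.07), 1 of the 4 intervals below 0.

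Other genes of the pathway were taken from a list of 70, of which 62 were in the files and 39 had at least 200 UMIs in one library. Of these, 6 were at least 2-fold higher at P7 and 5 at least 2-fold lower, where 10.4% and 10.0% of all genes were, and their median log2 ratio was 0.37 against 0.09 over all genes tested. The counts of the smaller lists that follow stand against the same 10.4% and 10.0%, and no list was tested against other genes.

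Among 7 genes of retinol transport and storage, 2 were at least 2-fold higher. Rbp4, the carrier of retinol in blood, was at 5.98 CPM at P1 and 31.8 CPM at P7 over all cells, and reached 78.6 CPM in fibrocytes at P7. Rlbp1, a retinal binding protein, was at 4.41 and 15.2 CPM, and its highest class was epithelium with 34.4 and 205 CPM.

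Ttr, the partner of Rbp4 in blood, was at 151 CPM at P1 and 483 CPM at P7 in epithelium. Lipe and Lpl, lipases that can free retinol from its esters, were at 40.5 and 109 CPM in endothelium at P1, where mural cells were close for Lpl, and at P7 Lipe was still highest there, at 71.8 CPM.

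Of 5 genes that oxidise retinol or reverse that step, 1, Rdh14, was at least 2-fold higher, from 9.61 to 21.4 CPM. Rdh10, the dehydrogenase known to be needed for the acid in the embryo, was highest in Gpc3-Dcn fibroblasts at P1, at 44.1 CPM, and at P7 mural cells (30.1 CPM) and the Sfrp4 class (27.8 CPM) were within counting error. Dhrs4, a reductase of retinal, was highest in epithelium at 168 and 116 CPM. Adh4, an alcohol dehydrogenase, was at 205 CPM in fibrocytes at P1 and at 184 CPM in neurons at P7, with other classes close below.

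Cyp1b1, a cytochrome that can also form retinoic acid, was highest in the Ccn3 class, at 538 CPM at P1 and 780 CPM at P7. The Scara3 class followed with 516 and 546 CPM, so the classes that held Aldh1a2 led this gene too.

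Cyp26a1, the other main enzyme of breakdown, was at least 2-fold higher at P7, from 1.15 to 7.02 CPM over all cells. It was highest in the Penk class, at 6.06 CPM (4.55 to 7.91) at P1 and 39.1 CPM (31.4 to 48.1) at P7, with Gpc3-Dcn fibroblasts next at 2.89 and 16.8 CPM. It thus had the same leading class as Dhrs3 at both ages, and not that of Cyp26b1. Tgm2, a transglutaminase known as a target of the acid, was at 46.9 and 156 CPM in the Penk class and was highest there at P7.

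Among the receptors and their partners, 15 were measured, 0 were at least 2-fold higher and 3, Nr2c2, Ncoa2 and Ncoa3, were lower. Rara reached 149 CPM in glia at P1 and 131 CPM in endothelium at P7, Rarg at 37.4 and 53.1 CPM in the Sfrp4 class, Rxrg at 112 and 108 CPM in glia, and Rxrb at 44.2 and 60.2 CPM in neurons. For Rara (144 CPM in endothelium), Rarg (35.7 CPM in the Penk class) and Rxrb (43.7 CPM in the Sfrp4 class) the next class at P1 was within counting error of the first, and so it was at P7 for Rara (128 CPM in the Ccn3 class) and Rxrb (59.3 CPM in glia). Of the orphan receptors, Nr2f1 was highest in the Ccn3 class at P1, at 464 CPM, and Nr2f2 in the Scara3 class at both ages, at 285 and 283 CPM.

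The corepressor Ncor1 reached 208 CPM in mural cells at P1, with the Ccn3 class close at 203 CPM, and the coregulators Ncoa1 and Nrip1 reached 117 CPM in tectorial cells and 66.6 CPM in glia. Fabp5, which can also bind the acid, was at 1707 CPM in glia at P1. Fabp4, a fatty acid binding protein, was at 107 CPM in endothelium at P1 and 1.77 CPM at P7.

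Of 7 known targets measured, 2 were at least 2-fold higher and 1 lower. Rarres1 was at 10.1 CPM at P1 and 35.9 CPM at P7 over all cells, with 187 CPM in the Ccn3 class at P7. Sox9, a transcription factor of supporting cells and cartilage, was at 72.2 and 180 CPM, with 355 CPM in fibrocytes at P7. Tshz1 was lower, from 8.75 to 2.56 CPM, and Rarres2 was highest in glia at P1, at 384 CPM, and at P7 mural cells (356 CPM) and the Scara3 class (346 CPM) were within counting error. The targets thus did not share a class.

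The genes whose pattern over the 26 class and age sums was most like that of a member were found by Pearson correlation of log2(CPM + 5) over 12464 genes. The sums share libraries and depth, so the values are a description. Aldh1a2 was most like Osr2 (0.977), Cfap161 (0.953) and Emilin2 (0.899), and Aldh1a3 was most like Ppp1r1c (0.927), AABR07059380 (0.915) and Snap91 (0.908). Rarb was most like Ebf2 (0.941), C1r (0.922) and Snai2 (0.909), and Cyp26b1 was most like Prr15 (0.927), Muc15 (0.920) and Gpx2 (0.919). These 4 members had close partners.

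Stra6 was most like Rbfox3 (0.893) and Myo5b (0.892), and Crabp2 most like Thnsl2 (0.868), Tmem80 (0.854) and Cbr4 (0.843). Aldh1a1 was most like Slc26a7 (0.702), AABR07007068 (0.675) and Pi16 (0.675). Dhrs3 was most like Mdfic (0.682), Erp44 (0.675) and Colgalt1 (0.671), and Crabp1 most like Fez1 (0.673), LOC691995 (0.665) and Asxl3 (0.661). Among the members themselves, the highest correlations were between Cyp26b1 and Stra6 (0.69), Crabp2 and Rarb (0.53), Aldh1a3 and Crabp1 (0.49) and Aldh1a2 and Crabp2 (0.48), and the lowest was between Dhrs3 and Stra6 (−0.45). The 3 enzymes did not share a partner among these genes.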

How the data were processed

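For each library, pooled from 40 animals or cochleae by the study's text, the authors deposited raw UMI counts per gene and barcode, made with Cell Ranger 3.1.0 on rat build rn6 (10x 3′ chemistry); the submitters' processing notes also name bcl2fastq and Seurat 3.1.1. How the authors treated doublets and free RNA is not given in the sources used here.

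The kept cells had between 500 and 5000 genes, a minimum of 500 UMIs, and a mitochondrial share below 25%. Each cell was scored on 22 marker lists (143 of 146 markers in the files) as the mean z-score, capped at 5, of log-transformed UMIs per 10000. A class needed a score of 0.5, a margin of 0.25 and 2 markers with a UMI, and 3233 cells (12.7%) lay within 0.1 of one of these score limits. Doublets were called with Scrublet (622 at P1, 775 at P7) and removed in an alternative only. For detection, cells were thinned to 2000 UMIs, which left out 252 cells at P1 and 711 at P7. A gene needed 200 UMIs in the higher library for a call of 2-fold, and 50 within a class or between source and other cells. Seurat clusters (10 principal components, resolution 0.8) served as an alternative to the gate. The libraries were merged with no correction between them, and members, gate markers and pathway genes were left out of the variable genes.

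The members, lists and settings were chosen with earlier results of these data known, and the mesenchymal lists came from such earlier results. The study's text names genes of the Scara3, Ccn3 and Gpc3-Dcn lists, but not those of the Penk and Sfrp4 lists. Named were all members, pathway genes with at least 50 CPM in a class or past 2-fold, and the 3 genes most like each member. Some genes that meet this rule are not reported here. A simulation of the ratio over all cells recovered 100% of 200 genes changed by 1.5 log2 units. It drew Poisson counts with no variation between animals or preparations, so it covers counting error only. Ratios within classes and between source and other cells were not simulated. Python 3.11.15, numpy 2.4.6, scipy 1.17.1, pandas 2.3.3, scanpy 1.11.5, matplotlib 3.10.9, R 4.3.3, Seurat 5.3.0 and Matrix 1.6.5 were used. Promoter windows came from RefSeq, build GRCr8, and no rn6 genome was used here.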

Additional observations from a re-analysis of the deposited data

Results flagged for a closer look

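For 6 members some classes were at least 2-fold higher at P7 while others were at least 2-fold lower. With 1 library per age the differences between classes were not tested. For Aldh1a2 the log2 ratio of P7 to P1 was 1.06 in macrophages and 1.63 in neurons, and it was −1.11 in glia and −1.06 in the Penk class, all classes with low levels of the gene. The neuronal value rested on 9 UMIs in 3 cells at P7, and its sign turned with clusters in place of the gate. In macrophages, which were read as background, the 36 UMIs at P7 lay in 13 cells, with 14 in 1 cell. For Aldh1a3 it was 1.57 in Gpc3-Dcn fibroblasts, −1.48 in neurons and −1.02 in glia. For Cyp26b1 it was 1.71 in fibrocytes, −2.13 in mural cells and −1.26 in epithelium, and the mural value rested on 22 UMIs in 5 cells at P1, with 11 in 1 cell. For Crabp1 it was 1.36 in the Ccn3 class, −1.80 in the Penk class and −1.08 in Gpc3-Dcn fibroblasts.

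For Crabp2 the log2 ratio was 1.53 in macrophages, 1.78 in neurons, 1.78 in the Sfrp4 class and 1.82 in fibrocytes, against −1.22 in epithelium. For Stra6 it was 2.21 in the Ccn3 class, against −2.51 in neurons, −1.93 in epithelium and −1.33 in tectorial cells. The neuronal values carry the mixed markers of that class at P7, and their part in these ratios was not tested.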

How the results depend on the processing

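No paired analysis was possible because each age has 1 library, and no replicate could be left out for the same reason. Classes depend on the gate. With clusters in place of the gate, the class with the highest level was the same for 3 of 9 members at P1 and 5 of 9 at P7. The clusters were nearly separate by age, with 11 P1 cells in those named for the Scara3 list, 1 for Gpc3-Dcn and 13 for Sfrp4, and 21 P7 cells for Penk, so these classes were almost empty at that age. In the Ccn3 class and in fibrocytes, most cells of P1 and of P7 came from different clusters. Low counts limit Cyp26b1, Crabp1 and Stra6.

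Ratios over all cells that moved beyond their interval follow as log2 values. Under 10% mitochondrial UMIs gave Aldh1a1 0.69, Aldh1a2 −0.55, Aldh1a3 0.14, Crabp1 −0.44 and Stra6 −0.20. A total without mitochondrial, ribosomal and haemoglobin genes gave Aldh1a1 0.69, Aldh1a2 −0.75, Crabp2 0.57, Rarb 0.10 and Dhrs3 0.00. Scaling by the median ratio gave Aldh1a1 0.67, Aldh1a2 −0.78, Crabp2 0.55, Rarb 0.07 and Dhrs3 −0.02. All barcodes gave Aldh1a2 −0.78 and Aldh1a3 −2.08, doublets removed gave Aldh1a2 −0.72, and equal weight per cell gave Aldh1a2 −0.74, Aldh1a3 −0.61 and Stra6 −0.56. Chosen after seeing the data, leaving out neurons gave Aldh1a1 0.68, Aldh1a2 −0.77, Aldh1a3 0.78, Crabp2 0.58, Rarb 0.09, Dhrs3 0.01 and Stra6 −0.22, and leaving out the Scara3 and Ccn3 classes gave Aldh1a1 0.61, Aldh1a2 −1.5, Aldh1a3 −1.66, Crabp1 −0.86, Dhrs3 −0.01 and Stra6 −1.23. The signs of Aldh1a3 and Dhrs3 thus depended on these choices, and apart from the cells left out the cause was not tested. At 1.5-fold 2 members were higher and 4 lower, and under median scaling 2 were lower. With no margin 1 member had a highest class 2-fold above the next at P1. By Spearman 10 of the 27 most like genes were kept.

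Within classes, the sign turned for Aldh1a1 in the Scara3 class with doublets removed (0.00) and, with clusters, for Aldh1a2 in neurons (−2.61), Crabp2 in the Ccn3 class (−2.14) and Rarb in the Ccn3 class (−0.65) and fibrocytes (−0.20). Between source and other cells thinned to 2000 UMIs, it turned for Crabp1 in Gpc3-Dcn fibroblasts at P7 (0.05), Rarb over all cells (0.19) and in the Scara3 class (0.06) at P1, and Stra6 in neurons at P1 (−1.04). Of the other class ratios 379 stayed within their interval and 26 moved, and of the other source ratios 95 stayed and 26 moved. Of the source ratios thinned to 2000 UMIs, which sets source and other cells to 1 depth, 13 stayed, 21 moved and 4 turned.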

Other observations

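Dividing cells, gated on 3 or more of 6 cell cycle genes, were 1031 cells (8.07%) at P1 and 972 (7.73%) at P7. Aldh1a2 was lower in them, at 55.5 against 116 CPM at P1 (log2 ratio −1.06) and 36.0 against 72.8 CPM at P7 (−1.02). Crabp1 was higher in them, at 15.1 against 7.65 CPM (0.98) and 16.4 against 4.01 CPM (2.03). Cyp26b1 was lower in them, with log2 ratios of −1.60 and −2.65, and so was Dhrs3, with −0.59 and −0.55. Cells of all classes were pooled for these values, so the classes' shares of dividing cells are part of them.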
